A study of Mus musculus with 12 samples.

Results

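The interferon response genes described here are 35 mouse genes that cells switch on, or use to signal, when interferon or viral nucleic acid is present. They were taken from a list of symbols and looked up by their Ensembl identifiers among the 53801 gene identifiers of the count tables, using the GENCODE vM21 annotation, and each of the 35 symbols was found. The cells were C2C12, immortal mouse myoblasts that fuse into myotubes when serum is withdrawn, and their messenger RNA was sequenced in 4 groups of 3 libraries. Sh2-Thap libraries came from cells with Cebpg knocked down and given thapsigargin for 6 h, Ctrl-Thap libraries from control cells given thapsigargin for 6 h, Sh2-DMSO libraries from knockdown cells given the solvent DMSO for 6 h, and Ctrl-DMSO libraries from control cells given DMSO for 6 h. Thapsigargin blocks the SERCA calcium pump and thereby causes stress of the endoplasmic reticulum (ER), and Cebpg encodes C/EBP gamma, a bZIP transcription factor that pairs with ATF4. Only 1 knockdown label, Sh2, is used and no source here describes the construct in the control cells, so the knockdown and any other lasting difference between the populations cannot be told apart. The labels give C2C12 as the source but HeLa in the culture protocol. They do not call the replicates separate cultures, and p-values then cover the spread of these libraries alone.

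Interferons are secreted proteins that bind receptors at the cell surface and act through JAK kinases on STAT transcription factors. Stat2 and Irf9 are subunits of ISGF3, the complex that binds the interferon-stimulated response element (ISRE) in the promoters of antiviral genes, and STAT dimers bind the gamma-activated sequence (GAS). Cells make interferon after sensors such as RIG-I (Ddx58) and MDA5 (Ifih1) meet foreign RNA and activate Irf3 and Irf7. Much of the machinery is itself interferon-inducible, and many antiviral effectors are almost silent in resting cells.

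Libraries held 29.4 to 47.7 M reads assigned to genes. Levels are counts per M gene reads after TMM scaling (CPM), given in the order of replicates 1 to 3. Cebpg, the knocked-down gene, had 6.11, 5.58 and 5.29 CPM in Sh2-Thap, against 211, 219 and 216 CPM in Ctrl-Thap, and 4.62, 3.74 and 5.18 CPM in Sh2-DMSO, against 51.7, 51.5 and 60.6 CPM in Ctrl-DMSO. The knockdown libraries lay far below the control libraries under both treatments, and the knockdown left 2.62% of the control level under thapsigargin and 8.27% in DMSO. The 7 genes taken as myoblast markers were Myod1, Myf5, Des, Cdh15, Pax7, Vim and Ncam1. Summed over these 7, levels were 7334 to 7828 CPM in Sh2-Thap, 4726 to 4786 CPM in Ctrl-Thap, 9539 to 10809 CPM in Sh2-DMSO and 7079 to 7644 CPM in Ctrl-DMSO libraries. Of 10 leukocyte markers 2 passed the filter for low counts, and the 10 summed to 4.73 to 6.11 CPM in Sh2-Thap, 3.71 to 4.1 CPM in Ctrl-Thap, 6.02 to 9.14 CPM in Sh2-DMSO and 5.38 to 6.14 CPM in Ctrl-DMSO. Of 5 endothelial markers 4 passed, and the 5 summed to 7.88 to 8.46 CPM in Sh2-Thap, 5.57 to 7.33 CPM in Ctrl-Thap, 1.03 to 1.39 CPM in Sh2-DMSO and 0.687 to 1.16 CPM in Ctrl-DMSO. Of 5 epithelial markers 3 passed, and the 5 summed to 7.2 to 8.49 CPM in Sh2-Thap, 2.99 to 3.57 CPM in Ctrl-Thap, 1.09 to 1.13 CPM in Sh2-DMSO and 0.318 to 0.43 CPM in Ctrl-DMSO. Summed myoblast markers thus far exceeded the other marker sums in each library. A sum follows its most abundant genes, and the median log2 change of the 7 with knockdown in DMSO was -0.023. Thapsigargin lowered 6 of the 7 and raised 1 in each population, where 34.4% of all tested genes fell in knockdown cells and 37% in control cells. The part of these marker changes in the results was not tested. In bulk RNA, fewer expressing cells and less RNA per cell cannot be told apart.

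The members differed widely in level. By the mean over the 12 libraries, 9 members were well expressed, at 10 CPM or more (Ddx58, Irf1, Irf3, Irf9, Stat2, Ifit2, Isg20, Ifi27 and Trim25). Another 20 were low, between 1 and 10 CPM, and 6 were near-silent, under 1 CPM (Zbp1, Oas1a, Oas1g, Oas2, Rsad2 and Cmpk2). Levels of different genes were compared per kb of exon, as RPKM, the CPM divided by exon length in kb. Ifi27, which encodes a small mitochondrial membrane protein, led with a mean of 43.9 RPKM, followed by Irf3 at 9.67, Bst2 at 8.91, Isg15 at 8.07, Isg20 at 7.40, Irf1 at 7.18 and Trim25 at 6.88 RPKM. At the other end stood Oas2 at 0.113, Cmpk2 at 0.104 and Oas1g at 0.0463 RPKM. With the same limits applied to RPKM, 1 member was well expressed, 18 were low and 16 near-silent. Of the 4 sensors, Ddx58 stood highest at 2.78 RPKM.

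**Figure D1:**
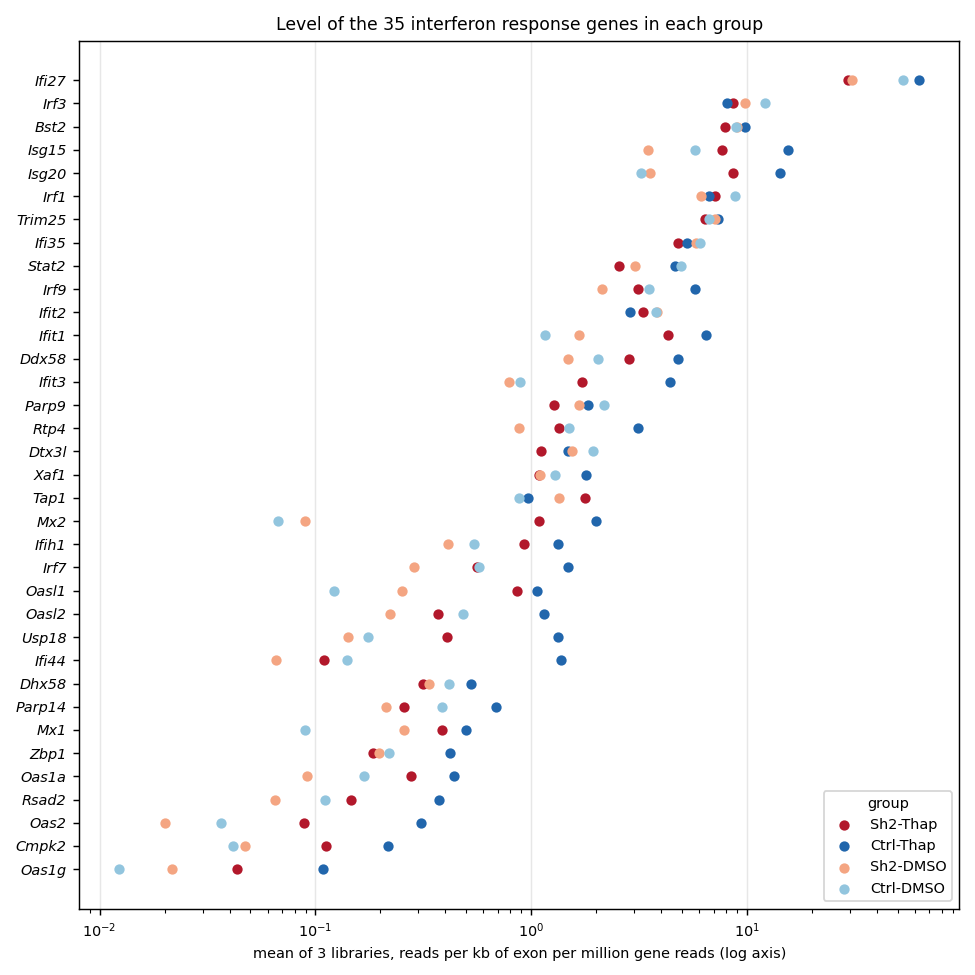
Mean RPKM of the 35 interferon response genes in each group, on a log axis, ordered by the mean over the 12 libraries. Ifi27 stands apart at 43.9 RPKM, 18 members lie between 1 and 10 RPKM, and 16 lie under 1 RPKM, down to Oas1g at 0.0463 RPKM.

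Several members sit side by side in the genome. Ifit2 (chr19:34550694-34576419), Ifit3 (chr19:34583531-34588731) and Ifit1 (chr19:34640871-34650009) lie in a row on chromosome 19 of GRCm38, and Oas2 (chr5:120730333-120749853), Oas1g (chr5:120876142-120887613) and Oas1a (chr5:120896256-120907521) on chromosome 5, as do Oasl2 and Oasl1. Mx1 (chr16:97447035-97462907) and Mx2 (chr16:97535308-97560900) are neighbours on chromosome 16, Rsad2 (chr12:26442746-26456452) and Cmpk2 (chr12:26469204-26479837) on chromosome 12. Dtx3l (chr16:35926511-35939151) and Parp9 (chr16:35938470-35972605) run in opposite directions and share 367 bases of exon, with Parp14 beside them. No label or header gives the strand of the libraries, and reads from Parp9 and Dtx3l cannot be told apart in the shared part. The same holds where another gene's exons overlap Dhx58, Irf1, Irf3, Irf7, Irf9, Oasl1, Rtp4, Ifi35, Usp18 and Tap1. Ifit3 and Ifit3b, Oas1a and Oas1g, and Mx1 and Mx2 are close copies between which reads could be split.

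Promoter windows from RefSeq (GRCm38.p6, 250 bases before to 50 bases after the start of transcription) were found for 25 of the 35 members. Of their 30 windows, 21 had the first 30 transcribed bases in a GENCODE transcript of the gene, and the starts of the rest are uncertain. The ISRE was searched as GAAA-NN-GAAA, the GAS as TTC-NNN-GAA and a C/EBP-ATF element as TGATG-N-AA, each on both strands and with overlapping matches allowed. An ISRE match was in the window of 10 of 25 members (40%), against 3.99% of 27025 genes with a window. A GAS match was in 6 of 25 (24%), against 9.55% of those genes, and a C/EBP-ATF match in 0 of 25, against 4.51%. At a share of 4.51% few matches would be met among 25 members, so the 0 does not show a lack of the element. A match is a description of the letters in these windows and shows no binding. The stretches below come from a selection of the members with a match before the start, with small as well as large changes further on. The capitals mark the matched ISRE letters. Positions count from 0 at the RefSeq start, and each sequence reads 5′ to 3′ on the gene's own strand.
Isg15 (chr4:156200855-156200916, minus strand, bases from -98): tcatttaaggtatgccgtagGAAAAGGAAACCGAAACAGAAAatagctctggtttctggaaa
Ifit1 (chr19:34640765-34640833, plus strand, bases from -124): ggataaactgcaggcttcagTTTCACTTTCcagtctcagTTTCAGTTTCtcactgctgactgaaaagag
Ifit3 (chr19:34583353-34583436, plus strand, bases from -176): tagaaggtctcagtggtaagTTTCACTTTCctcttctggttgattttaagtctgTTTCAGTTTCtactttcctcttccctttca
Oas1a (chr5:120907526-120907565, minus strand, bases from -40): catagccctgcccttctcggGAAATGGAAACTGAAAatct
Rsad2 (chr12:26456543-26456592, minus strand, bases from -140): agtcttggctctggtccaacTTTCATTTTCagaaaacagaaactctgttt
Stat2 (chr10:128270256-128270305, plus strand, bases from -242): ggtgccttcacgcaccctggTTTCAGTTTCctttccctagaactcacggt
Bst2 (chr8:71537567-71537622, minus strand, bases from -150): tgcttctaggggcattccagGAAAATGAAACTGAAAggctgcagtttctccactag
The Isg15 stretch holds 3 overlapping matches, the Ifit1 and Ifit3 stretches 2 separate matches each, the Oas1a and Bst2 stretches 2 overlapping matches each, and the Rsad2 and Stat2 stretches 1 each. In a second pair the capitals mark the GAS match.
Irf1 (chr11:53769904-53769952, plus strand, bases from -110): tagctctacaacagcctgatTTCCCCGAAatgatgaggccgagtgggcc
Isg20 (chr7:78913331-78913379, plus strand, bases from -93): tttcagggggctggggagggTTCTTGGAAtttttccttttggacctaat
Of the 10 members with an ISRE match 9 were tested, and thapsigargin in control cells raised 7 of them and lowered 0, where 37.7% of all tested genes rose and 37% fell. Of the 15 members with a window but no such match, 9 rose and 5 fell in the same comparison. Oas1a, with a match, and Cmpk2, without one, passed the filter for low counts mainly through the thapsigargin libraries. Under thapsigargin, knockdown cells had less RNA of 7 of the 10, and of 9 of the 15, where 28.4% of all tested genes were lower. Stat2 and Bst2 carry an ISRE match and did not pass the test of thapsigargin in control cells, whereas Isg20, Oasl1, Ifi44 and Irf7 rose with no ISRE match in the window.

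**Figure D2:**
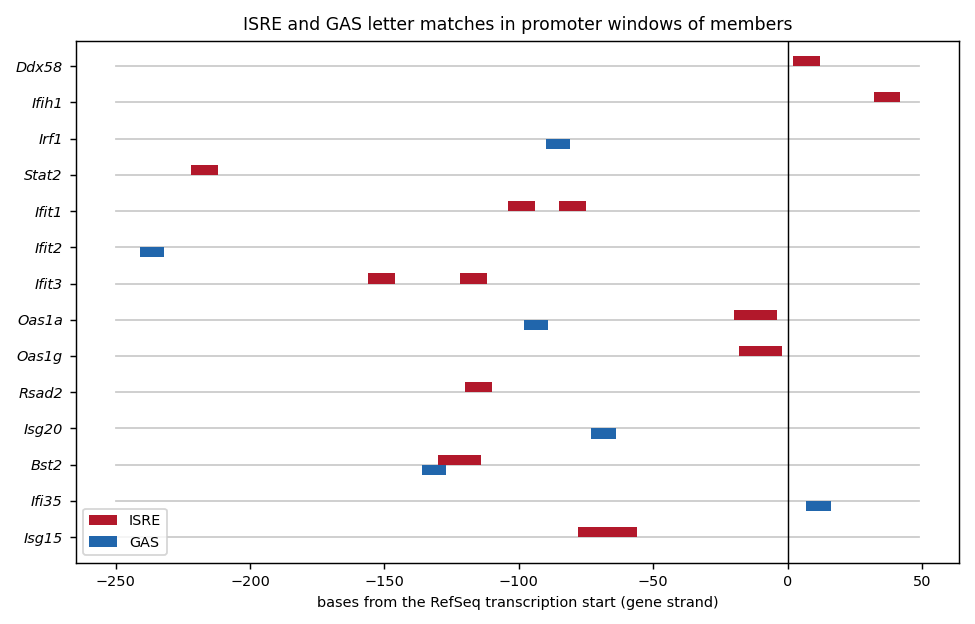
Position of ISRE and GAS matches in the promoter windows of the members that hold one, in bases from the RefSeq start of transcription. ISRE matches were found for 10 members and GAS matches for 6 of the 25 members with a window.

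Counts were tested with edgeR's quasi-likelihood test in 5 comparisons, with Benjamini-Hochberg adjustment over the 15828 genes that passed the filter for low counts, and called under an adjusted p of 0.05. Of the 35 members 34 were tested and Oas1g was not. Mx2, Oas1a, Oas2 and Cmpk2 passed the filter mainly through the thapsigargin libraries, so counts over the tested members lean toward genes high there. Thapsigargin in knockdown cells (Sh2-Thap against Sh2-DMSO) raised 19 members and lowered 7, where 35.4% of all tested genes rose and 34.4% fell. In control cells (Ctrl-Thap against Ctrl-DMSO) it raised 24 and lowered 6, where 37.7% of all tested genes rose and 37% fell. Under thapsigargin the knockdown (Sh2-Thap against Ctrl-Thap) came with 2 members higher and 25 lower, where 28.5% of all tested genes were higher and 28.4% lower. In DMSO the knockdown (Sh2-DMSO against Ctrl-DMSO) came with 3 higher and 14 lower, where 25% of all tested genes were higher and 26.5% lower. The thapsigargin effect itself differed between knockdown and control cells for 11 members. The difference, knockdown minus control on the log2 scale, was positive for 2 and negative for 9, where it was positive for 17.6% and negative for 17.7% of all tested genes.

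The 29 members with a mean of at least 1 CPM were set beside the 12297 tested genes in the same range. The median of the 29 log2 changes with thapsigargin was 0.57 in knockdown cells, against -0.045 for all such genes, and 0.83 in control cells, against -0.060 for all such genes. The median log2 change with knockdown was -0.72 under thapsigargin, against 0.007 for all such genes, and -0.32 in DMSO, against -0.017. Among the 29, Mx1, Mx2, Oasl1, Usp18 and Ifi44 averaged under 1 CPM in both DMSO groups. They reached the range only through thapsigargin libraries, so these medians still lean toward genes high with thapsigargin. Comparisons that share a group share its 3 libraries, so these 5 sets of values are not independent of one another. Of the 9 well expressed members, 5 rose and 3 fell with thapsigargin in control cells, where 38.4% of the 9165 tested genes at that level rose and 45.4% fell, and 2 of the 9 changed by at least 1 on the log2 scale. Under thapsigargin the knockdown came with 6 of the 9 lower and 1 higher, where 36% of those genes were lower and 33.8% higher. Of the 9, Isg20 reached the limit of 10 CPM only through thapsigargin libraries.

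**Figure D3:**
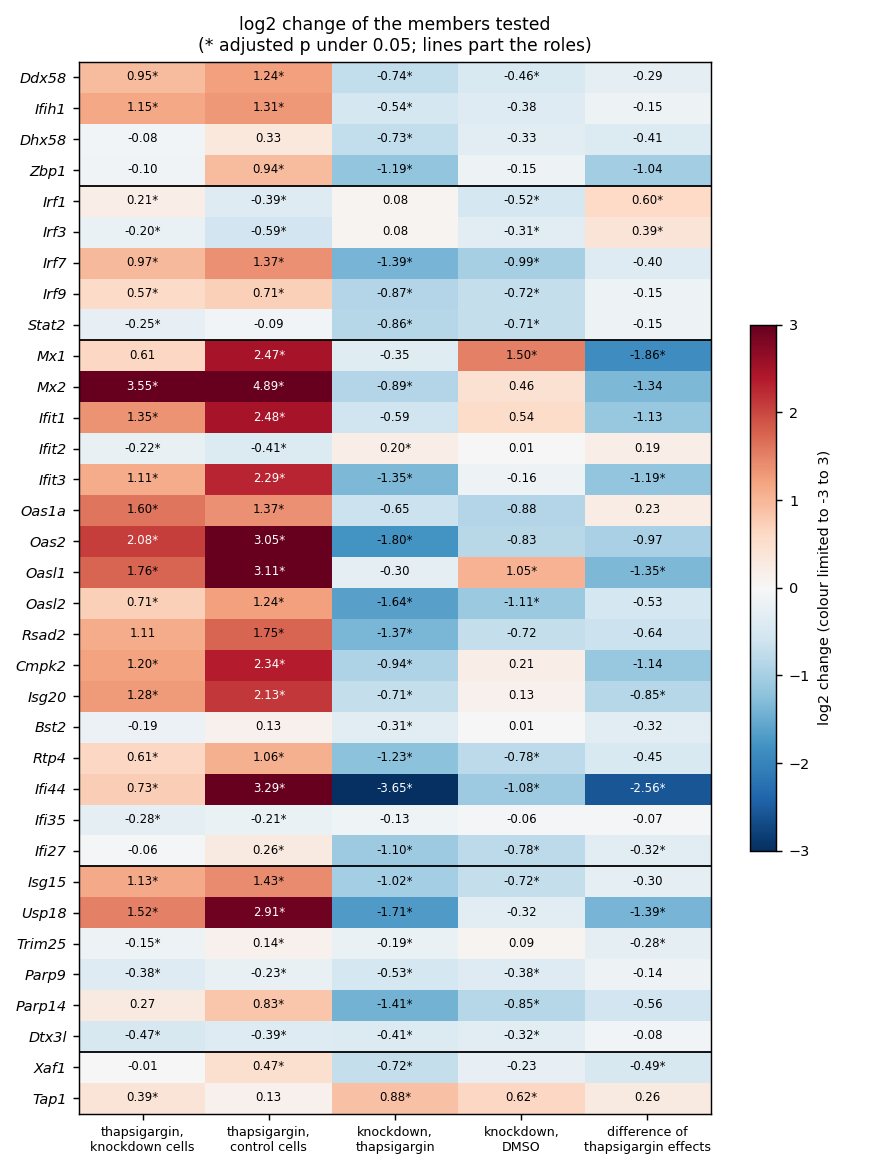
Log2 change of the 34 tested members in the 5 comparisons, with members grouped by role and asterisks on values with an adjusted p under 0.05. Thapsigargin in control cells raised 24 members and lowered 6, and the knockdown under thapsigargin came with 25 lower and 2 higher, Ifit2 and Tap1.

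The summed level of the 35 members was 296 to 335 CPM in Sh2-Thap, 454 to 499 CPM in Ctrl-Thap, 264 to 290.5 CPM in Sh2-DMSO and 352 to 364 CPM in Ctrl-DMSO libraries. Without Ifi27 it was 257 to 287 CPM in Sh2-Thap, 361 to 409 CPM in Ctrl-Thap, 222 to 244 CPM in Sh2-DMSO and 274 to 286 CPM in Ctrl-DMSO libraries. With Ifi27 counted, the highest knockdown library with thapsigargin lay under the lowest control library with DMSO.

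Among the 4 sensors, thapsigargin raised 2 in knockdown cells and 3 in control cells, where 35.4% and 37.7% of all tested genes rose. The 4 were lower in knockdown than in control cells under thapsigargin, where 28.4% of all tested genes were lower. Ddx58 (ENSMUSG00000040296, chr4:40203773-40239828) encodes RIG-I, the cytosolic sensor of uncapped RNA, and had 20.2, 17.4 and 22.7 CPM in Sh2-Thap, against 30.5, 31.8 and 38.8 CPM in Ctrl-Thap, and 10.5, 9.49 and 11.3 CPM in Sh2-DMSO, against 15.1, 13.6 and 14.2 CPM in Ctrl-DMSO. The thapsigargin libraries of each population lay above its DMSO libraries, and the knockdown libraries below the control libraries under each treatment, with no overlap. Ddx58 rose with thapsigargin in knockdown cells (log2 change 0.95, SE 0.099, adjusted p = 1.99e-09) and in control cells (1.24, SE 0.091, adjusted p = 9.58e-13). Ddx58 was lower in knockdown cells under thapsigargin (-0.74, SE 0.088, adjusted p = 3.47e-08) and in DMSO (-0.46, SE 0.1, adjusted p = 0.000467). Ifih1 encodes MDA5, the sensor of long double-stranded RNA, and had 6.23, 9.5 and 6.93 CPM in Sh2-Thap, against 8.71, 11.2 and 12.6 CPM in Ctrl-Thap, and 3.3, 3.07 and 3.76 CPM in Sh2-DMSO, against 4.54, 3.72 and 4.97 CPM in Ctrl-DMSO. The thapsigargin libraries were again the higher ones, while knockdown and control libraries overlapped under both treatments. Ifih1 rose with thapsigargin in knockdown cells (log2 change 1.15, SE 0.16, adjusted p = 1e-06) and in control cells (1.31, SE 0.15, adjusted p = 2.22e-08). The knockdown value passed the test under thapsigargin (-0.54, SE 0.14, adjusted p = 0.00202) and not in DMSO (-0.38, SE 0.17, adjusted p = 0.0698), where it did pass with no filter on low counts (adjusted p = 0.0173), with the compared groups alone in the fit (adjusted p = 0.0317), without Sh2-Thap replicate 1 (adjusted p = 0.0479), without Sh2-Thap replicate 2 (adjusted p = 0.0342), without Ctrl-Thap replicate 1 (adjusted p = 0.0384), without Ctrl-Thap replicate 3 (adjusted p = 0.0489) and without Ctrl-DMSO replicate 2 (adjusted p = 0.0356), with adjusted p of 0.0173 to 0.234 over the alternatives.

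Dhx58 encodes LGP2, a relative of RIG-I that lacks its signalling part, and ran at 0.94 to 1.2 CPM in Sh2-Thap and 1.65 to 1.77 CPM in Ctrl-Thap, and 0.914 to 1.36 CPM in Sh2-DMSO and 1.19 to 1.53 CPM in Ctrl-DMSO. Dhx58 was lower in knockdown cells under thapsigargin (log2 change -0.73, SE 0.22, adjusted p = 0.00532), and its thapsigargin values did not pass in knockdown (-0.081) or control cells (0.33). Zbp1, a sensor of Z-form nucleic acid that can start necroptosis, ran at 0.5 to 0.746 CPM in Sh2-Thap and 1.41 to 1.58 CPM in Ctrl-Thap, and 0.472 to 0.896 CPM in Sh2-DMSO and 0.487 to 0.954 CPM in Ctrl-DMSO, and only the Ctrl-Thap libraries exceeded 1 CPM. Its thapsigargin value in knockdown cells did not pass (log2 change -0.10, adjusted p = 0.795), and Zbp1 rose in control cells (0.94, SE 0.27, adjusted p = 0.00229). The difference between these effects missed the threshold (-1.04, SE 0.42, adjusted p = 0.0508) and passed it with DESeq2 size factors (adjusted p = 0.0483), without Sh2-DMSO replicate 2 (adjusted p = 0.0205) and without Ctrl-DMSO replicate 3 (adjusted p = 0.0336), with adjusted p of 0.0205 to 0.187 over the alternatives.

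The 5 transcription factors were lower in knockdown than in control cells in DMSO, where 26.5% of all tested genes were lower. Under thapsigargin 3 of the 5, Irf7, Irf9 and Stat2, were lower as well, where the share of all tested genes was 28.4%. Irf7 (ENSMUSG00000025498, chr7:141262706-141266481), which drives the amplification of interferon production, had 1.97, 1.98 and 2.44 CPM in Sh2-Thap, against 5.43, 5.57 and 5.7 CPM in Ctrl-Thap, and 0.809, 1 and 1.42 CPM in Sh2-DMSO, against 2.01, 2.03 and 2.43 CPM in Ctrl-DMSO. The 4 groups did not overlap except Ctrl-DMSO with Sh2-Thap libraries, which lay at 1.97 to 2.44 CPM in Sh2-Thap and 2.01 to 2.43 CPM in Ctrl-DMSO. Irf7 rose with thapsigargin in knockdown cells (log2 change 0.97, SE 0.2, adjusted p = 6.39e-05) and in control cells (1.37, SE 0.15, adjusted p = 1.32e-09) and was 2.61-fold lower in knockdown cells under thapsigargin (-1.39, SE 0.16, adjusted p = 2.85e-09). In DMSO it was lower with knockdown as well (-0.99, SE 0.2, adjusted p = 8.3e-05). Irf9 (ENSMUSG00000002325, chr14:55603571-55610030), the DNA-binding subunit of ISGF3, had 16.4, 16.3 and 18 CPM in Sh2-Thap, against 27.5, 29.7 and 35.5 CPM in Ctrl-Thap, and 11.8, 10.6 and 12 CPM in Sh2-DMSO, against 19, 19.6 and 18 CPM in Ctrl-DMSO. Here too the knockdown libraries lay below the control libraries under each treatment, and thapsigargin libraries above DMSO libraries within each population. Irf9 rose with thapsigargin in knockdown cells (log2 change 0.57, SE 0.088, adjusted p = 9.51e-07) and in control cells (0.71, SE 0.078, adjusted p = 8.38e-10). Irf9 was lower with knockdown under thapsigargin (-0.87, SE 0.079, adjusted p = 3.34e-11) and in DMSO (-0.72, SE 0.086, adjusted p = 1.89e-08).

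Stat2 (ENSMUSG00000040033, chr10:128270559-128292849), the subunit of ISGF3 that carries its activation domain, had 14.9, 14.1 and 16.4 CPM in Sh2-Thap, against 26.9, 27.1 and 28.4 CPM in Ctrl-Thap, and 17, 16.8 and 19.9 CPM in Sh2-DMSO, against 28.4, 28.3 and 31.1 CPM in Ctrl-DMSO. Knockdown libraries were the lower ones under each treatment, with no overlap, and thapsigargin and DMSO libraries of control cells overlapped. Stat2 was lower in knockdown cells under thapsigargin (log2 change -0.86, SE 0.074, adjusted p = 7.12e-12) and in DMSO (-0.71, SE 0.073, adjusted p = 7.59e-10). Stat2 fell slightly with thapsigargin in knockdown cells (-0.25, SE 0.077, adjusted p = 0.00565), and its value in control cells did not pass (-0.091, adjusted p = 0.236). The fall was lost without Sh2-DMSO replicate 3 (adjusted p = 0.0704), with adjusted p of 0.00187 to 0.0704 over the alternatives.

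Irf1 and Irf3 went another way. Irf1 (ENSMUSG00000018899, chr11:53770014-53778374), a factor induced by interferon gamma that carries the GAS match printed above, had 28.3, 24.1 and 32.1 CPM in Sh2-Thap, against 25.1, 27.1 and 27.6 CPM in Ctrl-Thap, and 24, 24.4 and 24.7 CPM in Sh2-DMSO, against 35.3, 36.9 and 32.7 CPM in Ctrl-DMSO. The Ctrl-DMSO libraries were the highest, and Sh2-Thap libraries overlapped those of Ctrl-Thap and of Sh2-DMSO, which lay apart from each other. Irf1 rose with thapsigargin in knockdown cells (log2 change 0.21, SE 0.076, adjusted p = 0.015) and fell in control cells (-0.39, SE 0.073, adjusted p = 1.62e-05). The difference of 0.60 passed the test (SE 0.11, adjusted p = 2.72e-05). The rise in knockdown cells was lost without Sh2-Thap replicate 3 (log2 change 0.10, adjusted p = 0.235) and without Sh2-DMSO replicate 1 (adjusted p = 0.0542), with adjusted p of 0.000533 to 0.235 over the alternatives. Its knockdown value under thapsigargin did not pass (0.084, adjusted p = 0.349), but did without Sh2-Thap replicate 2 (log2 change 0.18, adjusted p = 0.0352), with adjusted p of 0.0352 to 0.852 over the alternatives, and in DMSO it was lower with knockdown (-0.52, SE 0.074, adjusted p = 6.49e-07). Irf3, the factor that sensors activate to start interferon beta transcription, had 29, 28 and 31.5 CPM in Sh2-Thap, against 27.8, 28 and 27.9 CPM in Ctrl-Thap, and 33.2, 35.9 and 32.3 CPM in Sh2-DMSO, against 39.3, 43.5 and 42.9 CPM in Ctrl-DMSO. The Ctrl-DMSO libraries were again the highest and both thapsigargin groups the lowest, overlapping each other. Irf3 fell with thapsigargin in knockdown cells (log2 change -0.20, SE 0.062, adjusted p = 0.00583) and further in control cells (-0.59, SE 0.061, adjusted p = 2.32e-10), a difference of 0.39 (SE 0.087, adjusted p = 0.000572).

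The 18 antiviral effectors held the largest changes. Of the 17 tested, 11 rose with thapsigargin in knockdown cells and 14 in control cells, where 35.4% and 37.7% of all tested genes rose. Mx2, Oas1a, Oas2 and Cmpk2 rose in both populations and passed the filter for low counts mainly through the thapsigargin libraries. The counts of risen effectors therefore lean toward genes high with thapsigargin. Under thapsigargin 11 effectors were lower in knockdown cells, where 28.4% of all tested genes were lower. Among the IFIT genes, which encode proteins that bind foreign RNA, Ifit1 (ENSMUSG00000034459, chr19:34640871-34650009) had 9.46, 15.1 and 9.69 CPM in Sh2-Thap, against 14.8, 15.2 and 21.4 CPM in Ctrl-Thap, and 3.3, 4.19 and 5.81 CPM in Sh2-DMSO, against 3.47, 2.41 and 3.32 CPM in Ctrl-DMSO. Thapsigargin libraries lay above DMSO libraries in both populations, and knockdown libraries overlapped control libraries under each treatment. Ifit1 rose with thapsigargin in knockdown cells (log2 change 1.35, SE 0.28, adjusted p = 0.00148) and in control cells (2.48, SE 0.28, adjusted p = 1.66e-05). The difference missed the threshold (-1.13, SE 0.4, adjusted p = 0.055). That difference passed in DESeq2 (adjusted p = 0.0182), without Sh2-Thap replicate 2 (adjusted p = 0.00234) and without Sh2-DMSO replicate 1 (adjusted p = 0.0371), with adjusted p of 0.00234 to 0.152 over the alternatives. Its knockdown value under thapsigargin also missed it (-0.59, SE 0.23, adjusted p = 0.0546) and passed without Sh2-Thap replicate 2 (adjusted p = 0.00181), without Sh2-DMSO replicate 1 (adjusted p = 0.0472) and without Sh2-DMSO replicate 3 (adjusted p = 0.0456), with adjusted p of 0.00181 to 0.159 over the alternatives. In DMSO the value of 0.54 did not pass (adjusted p = 0.204), except with the compared groups alone in the fit (adjusted p = 0.0156), with adjusted p of 0.0156 to 0.544 over the alternatives.

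Ifit3 (ENSMUSG00000074896, chr19:34583531-34588731) had 2.09, 3.5 and 3.41 CPM in Sh2-Thap, against 7.4, 6.35 and 9.19 CPM in Ctrl-Thap, and 1.23, 1.15 and 1.76 CPM in Sh2-DMSO, against 1.08, 1.55 and 2.02 CPM in Ctrl-DMSO. Each Ctrl-Thap library lay above each Sh2-Thap library, while the DMSO libraries of the populations overlapped. Ifit3 rose 2.15-fold with thapsigargin in knockdown cells (log2 change 1.11, SE 0.24, adjusted p = 0.00023) and 4.9-fold in control cells (2.29, SE 0.2, adjusted p = 2.82e-10). The difference passed the test (-1.19, SE 0.33, adjusted p = 0.00563). Ifit2, the neighbour of both, had 12.4, 12.5 and 13.9 CPM in Sh2-Thap, against 11.3, 10.9 and 11.6 CPM in Ctrl-Thap, and 15.5, 13.9 and 15.8 CPM in Sh2-DMSO, against 14.7, 14.9 and 15.2 CPM in Ctrl-DMSO. Its thapsigargin libraries were the lower ones in control cells, and in knockdown cells they touched the DMSO libraries. Ifit2 fell with thapsigargin in knockdown cells (log2 change -0.22, SE 0.079, adjusted p = 0.0148) and in control cells (-0.41, SE 0.079, adjusted p = 2.45e-05). The first call was lost in DESeq2 (adjusted p = 0.0557), without Sh2-Thap replicate 1 (adjusted p = 0.0624) and without Sh2-DMSO replicate 3 (adjusted p = 0.0645), with adjusted p of 0.00441 to 0.0645 over the alternatives. Under thapsigargin it was higher in knockdown cells (0.20, SE 0.08, adjusted p = 0.0308). This call was lost with no filter on low counts (adjusted p = 0.0529), in DESeq2 (adjusted p = 0.0617), without Sh2-Thap replicate 3 (adjusted p = 0.176), without Ctrl-Thap replicate 1 (adjusted p = 0.0633) and without Ctrl-Thap replicate 2 (adjusted p = 0.111), with adjusted p of 0.0136 to 0.176 over the alternatives. The 3 IFIT neighbours therefore did not move together, with Ifit1 and Ifit3 up and Ifit2 down under thapsigargin.

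**Figure D4:**
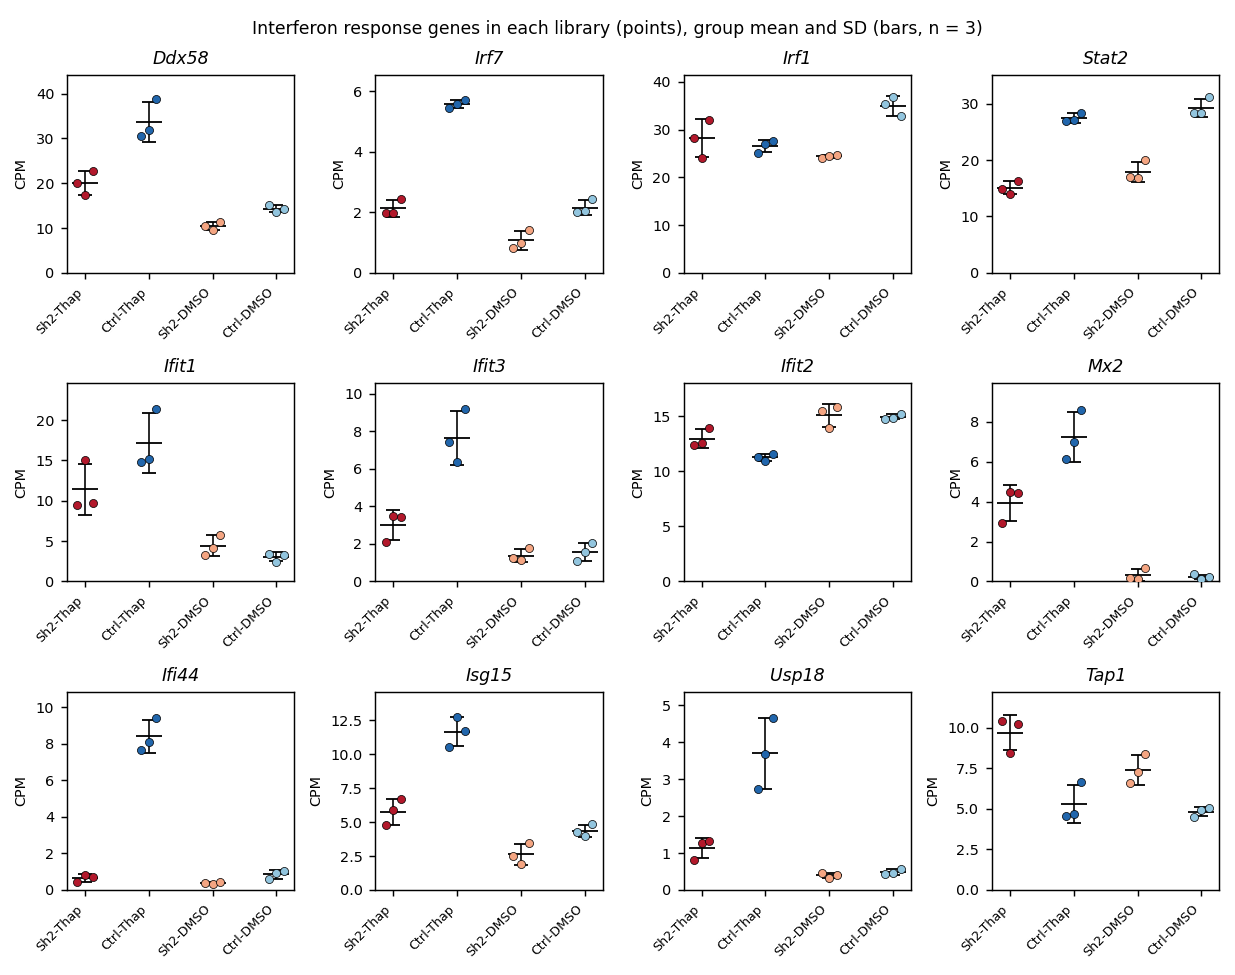
Level in CPM of 12 members in each library, with points for libraries and black bars for the group mean ± SD (n = 3), groups in the order Sh2-Thap, Ctrl-Thap, Sh2-DMSO and Ctrl-DMSO. Ctrl-Thap libraries are the highest for Ddx58, Irf7, Ifit3, Mx2, Ifi44, Isg15 and Usp18, and Sh2-Thap libraries for Tap1 (8.46 to 10.4 CPM).

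Mx2 (ENSMUSG00000023341, chr16:97535308-97560900), a dynamin-like GTPase that traps viral particles, had 2.91, 4.47 and 4.41 CPM in Sh2-Thap, against 6.11, 7 and 8.6 CPM in Ctrl-Thap, and 0.162, 0.147 and 0.665 CPM in Sh2-DMSO, against 0.349, 0.143 and 0.231 CPM in Ctrl-DMSO. Libraries with thapsigargin lay far above those with DMSO, which overlapped between the populations at under 1 CPM. Mx2 rose 11.7-fold in knockdown cells (log2 change 3.55, SE 0.33, adjusted p = 2.39e-09) and 29.7-fold in control cells (4.89, SE 0.32, adjusted p = 3.28e-12), the largest rise among the members in either population. Without Sh2-DMSO replicate 3, the highest of its group, the rise in knockdown cells was 24.7-fold. Under thapsigargin it was lower in knockdown cells (-0.89, SE 0.2, adjusted p = 0.000585). This call was lost in DESeq2 (adjusted p = 0.0833), with adjusted p of 3.33e-10 to 0.0833 over the alternatives, and the difference of effects missed the threshold (-1.34, SE 0.6, adjusted p = 0.0911). Without Sh2-DMSO replicate 3 the difference was -0.26 on the log2 scale. That difference passed with no filter on low counts (adjusted p = 0.0174), without Sh2-DMSO replicate 1 (adjusted p = 0.0433) and without Sh2-DMSO replicate 2 (adjusted p = 0.0296), with adjusted p of 0.0174 to 0.823 over the alternatives. Mx1, its neighbour and relative, had 1.38, 1.04 and 1.97 CPM in Sh2-Thap, against 1.83, 1.73 and 2.08 CPM in Ctrl-Thap, and 1.49, 0.678 and 0.752 CPM in Sh2-DMSO, against 0.262, 0.315 and 0.433 CPM in Ctrl-DMSO. The Ctrl-DMSO libraries were the low ones, below each knockdown library with DMSO, and the thapsigargin groups overlapped. Mx1 rose in control cells (log2 change 2.47, SE 0.32, adjusted p = 2.26e-08) and was 2.83-fold higher in knockdown cells in DMSO (1.5, SE 0.35, adjusted p = 0.000606). The effects differed (-1.86, SE 0.43, adjusted p = 0.000944). Its thapsigargin value in knockdown cells missed the threshold (0.61, SE 0.28, adjusted p = 0.0516) and passed it with DESeq2 size factors (adjusted p = 0.0441), with upper-quartile scaling (adjusted p = 0.0457), without Sh2-Thap replicate 2 (adjusted p = 0.0177), without Sh2-DMSO replicate 1 (log2 change 1.03, adjusted p = 0.00338) and without Ctrl-DMSO replicate 3 (adjusted p = 0.0497), with adjusted p of 0.00338 to 0.35 over the alternatives.

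The oligoadenylate synthetase family makes a signalling nucleotide from ATP when it binds double-stranded RNA, while the OASL proteins act on sensors or on Irf7. Oasl1, known in mice to restrain Irf7 translation, had 2.59, 1.98 and 2.17 CPM in Sh2-Thap, against 2.89, 2.56 and 2.87 CPM in Ctrl-Thap, and 0.517, 0.914 and 0.549 CPM in Sh2-DMSO, against 0.262, 0.43 and 0.26 CPM in Ctrl-DMSO. Libraries with thapsigargin were the higher ones, with the populations overlapping there, and in DMSO the knockdown libraries lay above the control libraries. Oasl1 rose 3.38-fold in knockdown cells (log2 change 1.76, SE 0.24, adjusted p = 7.45e-08) and 8.61-fold in control cells (3.11, SE 0.26, adjusted p = 1.43e-12), a difference of -1.35 (SE 0.38, adjusted p = 0.00551), and was higher with knockdown in DMSO (1.05, SE 0.33, adjusted p = 0.00824). The calls of the difference and of the DMSO value were lost without Sh2-DMSO replicate 2 (adjusted p = 0.0502 for the difference, with adjusted p of 0.003 to 0.0502 over the alternatives, and adjusted p = 0.104 in DMSO, with adjusted p of 0.0046 to 0.104 over the alternatives). Oasl2, beside it in the genome, had 1.73, 2.79 and 2.56 CPM in Sh2-Thap, against 6.4, 7 and 8.51 CPM in Ctrl-Thap, and 1, 0.943 and 2.31 CPM in Sh2-DMSO, against 2.74, 2.83 and 3.7 CPM in Ctrl-DMSO. The knockdown libraries lay below the control libraries under each treatment, and Sh2-DMSO replicate 3 stood above the other libraries of its group, within the Sh2-Thap range. Oasl2 was 3.11-fold lower with knockdown under thapsigargin (log2 change -1.64, SE 0.22, adjusted p = 3.09e-06) and lower in DMSO (-1.11, SE 0.27, adjusted p = 0.00187), where the log2 change without Sh2-DMSO replicate 3 was -1.67 (adjusted p = 1.35e-07). Oasl2 rose in knockdown cells (0.71, SE 0.28, adjusted p = 0.0309) and in control cells (1.24, SE 0.21, adjusted p = 2.72e-05). The first of these calls was lost without Sh2-Thap replicate 2 (adjusted p = 0.114), without Sh2-Thap replicate 3 (adjusted p = 0.105), without Sh2-DMSO replicate 1 (adjusted p = 0.122) and without Sh2-DMSO replicate 2 (log2 change 0.47, adjusted p = 0.138), and the log2 change without Sh2-DMSO replicate 3 was 1.26 (adjusted p = 1.98e-05), with adjusted p of 1.98e-05 to 0.138 over the alternatives.

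The near-silent synthetases were close to the detection limit. Oas2 ran at 0.323 to 0.529 CPM in Sh2-Thap and 1.19 to 1.55 CPM in Ctrl-Thap, and 0.0295 to 0.174 CPM in Sh2-DMSO and 0.0867 to 0.286 CPM in Ctrl-DMSO. Oas2 rose with thapsigargin in knockdown cells (log2 change 2.08, SE 0.56, adjusted p = 0.00142) and in control cells (3.05, SE 0.41, adjusted p = 4.45e-08). The rise was 7.92-fold in knockdown cells without Sh2-DMSO replicate 3, against 4.22-fold with it, and 13.2-fold in control cells without Ctrl-DMSO replicate 2, against 8.26-fold with it. Oas2 was lower with knockdown under thapsigargin (-1.80, SE 0.35, adjusted p = 4.96e-05). Oas1a, whose stretch is printed above, ran at 0.47 to 0.588 CPM in Sh2-Thap and 0.802 to 0.868 CPM in Ctrl-Thap, and 0.116 to 0.206 CPM in Sh2-DMSO and 0.233 to 0.433 CPM in Ctrl-DMSO. Oas1a rose with thapsigargin in knockdown cells (log2 change 1.60, SE 0.43, adjusted p = 0.00132) and in control cells (1.37, SE 0.35, adjusted p = 0.000728). Its knockdown values of -0.65 under thapsigargin and -0.88 in DMSO did not pass. Oas1g ran at 0.0587 to 0.147 CPM in Sh2-Thap and 0.129 to 0.478 CPM in Ctrl-Thap, and 0.0295 to 0.0647 CPM in Sh2-DMSO and 0 to 0.0867 CPM in Ctrl-DMSO, too low to be tested, and the sums over 3 libraries were 10 reads in Sh2-Thap, 28 in Ctrl-Thap, 5 in Sh2-DMSO and 3 in Ctrl-DMSO.

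Rsad2 encodes viperin, which makes a chain-terminating nucleotide, and its neighbour Cmpk2 encodes a nucleotide kinase of mitochondria. Rsad2 ran at 0.353 to 0.843 CPM in Sh2-Thap and 1.07 to 1.91 CPM in Ctrl-Thap, and 0.0323 to 0.607 CPM in Sh2-DMSO and 0.43 to 0.578 CPM in Ctrl-DMSO, with Sh2-DMSO libraries spread widely. Its thapsigargin value in knockdown cells did not pass (log2 change 1.11, SE 0.5, adjusted p = 0.0532), and Rsad2 rose in control cells (1.75, SE 0.39, adjusted p = 0.000297). Rsad2 was lower with knockdown under thapsigargin (-1.37, SE 0.38, adjusted p = 0.00337). The value in knockdown cells passed with DESeq2 size factors (adjusted p = 0.0493), with no filter on low counts (adjusted p = 0.0159), without Sh2-Thap replicate 1 (adjusted p = 0.0161), without Ctrl-Thap replicate 3 (adjusted p = 0.0397) and without Sh2-DMSO replicate 3 (log2 change 2.31, adjusted p = 0.000472), with adjusted p of 0.000472 to 0.228 over the alternatives. Its knockdown value in DMSO (-0.72, adjusted p = 0.259) passed without Sh2-DMSO replicate 3 (log2 change -1.94, adjusted p = 0.00611), with adjusted p of 0.00611 to 0.715 over the alternatives. Cmpk2 ran at 0.264 to 0.617 CPM in Sh2-Thap and 0.802 to 1.03 CPM in Ctrl-Thap, and 0.097 to 0.318 CPM in Sh2-DMSO and 0.0874 to 0.231 CPM in Ctrl-DMSO. Cmpk2 rose with thapsigargin in knockdown cells (log2 change 1.20, SE 0.47, adjusted p = 0.0226) and in control cells (2.34, SE 0.43, adjusted p = 1.03e-05). Cmpk2 was lower with knockdown under thapsigargin (-0.94, SE 0.36, adjusted p = 0.0276). The rise in knockdown cells was lost in DESeq2 (adjusted p = 0.0546), without Sh2-Thap replicate 2 (adjusted p = 0.0625), without Sh2-Thap replicate 3 (adjusted p = 0.126), without Sh2-DMSO replicate 1 (adjusted p = 0.116) and without Sh2-DMSO replicate 2 (adjusted p = 0.0649), with adjusted p of 0.00824 to 0.126 over the alternatives. The knockdown call was lost in DESeq2 (adjusted p = 0.102), without Sh2-Thap replicate 1 (adjusted p = 0.172), without Ctrl-Thap replicate 1 (adjusted p = 0.0896) and without Ctrl-Thap replicate 3 (adjusted p = 0.0529), with adjusted p of 0.0163 to 0.172 over the alternatives.

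Ifi44 (ENSMUSG00000028037, chr3:151730922-151749960), a protein of the cytoplasm with a GTPase-like fold, showed the largest knockdown difference of the members. It had 0.441, 0.843 and 0.734 CPM in Sh2-Thap, against 7.69, 8.11 and 9.41 CPM in Ctrl-Thap, and 0.388, 0.354 and 0.463 CPM in Sh2-DMSO, against 0.582, 0.945 and 1.04 CPM in Ctrl-DMSO. The Ctrl-Thap libraries stood alone, and each of the other 9 libraries was at or under 1.04 CPM. Ifi44 rose with thapsigargin in knockdown cells (log2 change 0.73, SE 0.32, adjusted p = 0.0428) and 9.77-fold in control cells (3.29, SE 0.18, adjusted p = 3.66e-17). Under thapsigargin it was 12.5-fold lower in knockdown cells (-3.65, SE 0.19, adjusted p = 3.57e-17), and it was lower with knockdown in DMSO as well (-1.08, SE 0.3, adjusted p = 0.00299). The thapsigargin effect was smaller in knockdown cells by -2.56 on the log2 scale (SE 0.4, adjusted p = 4.17e-06). Its rise in knockdown cells was lost with no filter on low counts (adjusted p = 0.0669), in DESeq2 (adjusted p = 0.0563), with the compared groups alone in the fit (adjusted p = 0.0658), without Sh2-Thap replicate 2 (adjusted p = 0.187), without Sh2-Thap replicate 3 (adjusted p = 0.117), without Sh2-DMSO replicate 1 (adjusted p = 0.0892) and without Sh2-DMSO replicate 2 (adjusted p = 0.116), with adjusted p of 0.0114 to 0.187 over the alternatives.

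Ifi27 (ENSMUSG00000064215, chr12:103434211-103440239), the most abundant member, had 39.1, 42.1 and 48.4 CPM in Sh2-Thap, against 93.3, 93.7 and 90.0 CPM in Ctrl-Thap, and 45.4, 42.7 and 46.9 CPM in Sh2-DMSO, against 77.4, 76.3 and 77.8 CPM in Ctrl-DMSO. The knockdown libraries lay far below the control libraries under both treatments, with no overlap. Ifi27 was 2.14-fold lower with knockdown under thapsigargin (log2 change -1.10, SE 0.058, adjusted p = 3.09e-17) and 1.72-fold lower in DMSO (-0.78, SE 0.058, adjusted p = 4.44e-13). Its thapsigargin value in knockdown cells did not pass (-0.057, SE 0.06, adjusted p = 0.402), except without Sh2-Thap replicate 3 (log2 change -0.15, adjusted p = 0.0272), with adjusted p of 0.0272 to 0.913 over the alternatives, and Ifi27 rose in control cells (0.26, SE 0.056, adjusted p = 0.000104). These effects differed by -0.32 (SE 0.082, adjusted p = 0.00252). Isg20 (ENSMUSG00000039236, chr7:78913424-78920396), an exonuclease that degrades RNA and carries a GAS match, had 15.8, 15.5 and 16.9 CPM in Sh2-Thap, against 25.6, 27.3 and 26 CPM in Ctrl-Thap, and 7.24, 6.37 and 6.27 CPM in Sh2-DMSO, against 6.49, 5.98 and 5.61 CPM in Ctrl-DMSO. Thapsigargin libraries lay above DMSO libraries, and the knockdown libraries were the lower ones under thapsigargin only, overlapping control libraries in DMSO. Isg20 rose 2.43-fold in knockdown cells (log2 change 1.28, SE 0.086, adjusted p = 7.98e-15) and 4.37-fold in control cells (2.13, SE 0.083, adjusted p = 2.07e-21). The effect was smaller in knockdown cells by -0.85 (SE 0.12, adjusted p = 9.5e-07). Isg20 was lower with knockdown under thapsigargin by a log2 change of -0.71 (SE 0.073, adjusted p = 4.29e-10), and its value was 0.13 in DMSO (adjusted p = 0.252).

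Rtp4, a chaperone-like protein that restrains flaviviruses, had 1.73, 3.31 and 3.52 CPM in Sh2-Thap, against 6.91, 6.63 and 6.46 CPM in Ctrl-Thap, and 1.94, 1.77 and 1.88 CPM in Sh2-DMSO, against 3.7, 2.92 and 2.95 CPM in Ctrl-DMSO. Knockdown libraries were lower under each treatment, and Sh2-Thap replicate 1 stood below the other libraries of its group and below the Sh2-DMSO libraries. Rtp4 was lower with knockdown under thapsigargin (log2 change -1.23, SE 0.16, adjusted p = 9.26e-08) and in DMSO (-0.78, SE 0.19, adjusted p = 0.000964). Rtp4 rose with thapsigargin in knockdown cells (0.61, SE 0.19, adjusted p = 0.00615) and in control cells (1.06, SE 0.16, adjusted p = 3.95e-07). The rise in knockdown cells was lost without Sh2-Thap replicate 3 (adjusted p = 0.0793), with adjusted p of 3.72e-05 to 0.0793 over the alternatives. Bst2, which encodes tetherin and holds budding virions at the cell surface, had 6.76, 7.33 and 7.37 CPM in Sh2-Thap, against 8.3, 9.45 and 8.68 CPM in Ctrl-Thap, and 8.96, 7.64 and 7.87 CPM in Sh2-DMSO, against 8.1, 8.3 and 7.77 CPM in Ctrl-DMSO. The Sh2-Thap libraries lay below those of each other group, and these overlapped. Bst2 was lower with knockdown under thapsigargin (log2 change -0.31, SE 0.097, adjusted p = 0.00722). This call was lost without Ctrl-Thap replicate 2 (adjusted p = 0.0572), with adjusted p of 0.00649 to 0.0572 over the alternatives. The difference of thapsigargin effects did not pass (-0.32, SE 0.14, adjusted p = 0.0666), except without Sh2-DMSO replicate 2 (adjusted p = 0.0483), with adjusted p of 0.0483 to 0.193 over the alternatives.

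Ifi35, a partner of the protein Nmi, had 7.7, 8.82 and 8.4 CPM in Sh2-Thap, against 9.78, 9.08 and 8.35 CPM in Ctrl-Thap, and 9.83, 9.61 and 10.7 CPM in Sh2-DMSO, against 10.4, 11.3 and 9.68 CPM in Ctrl-DMSO. The 4 groups lay close together, with the Sh2-Thap libraries all below the Sh2-DMSO libraries. Ifi35 fell with thapsigargin in knockdown cells (log2 change -0.28, SE 0.096, adjusted p = 0.0112) and in control cells (-0.21, SE 0.092, adjusted p = 0.0406). The first call was lost without Sh2-Thap replicate 1 (adjusted p = 0.0618) and without Sh2-DMSO replicate 3 (adjusted p = 0.0536), with adjusted p of 0.00881 to 0.0618 over the alternatives. The second was lost with DESeq2 size factors (adjusted p = 0.0761), in DESeq2 (adjusted p = 0.154), with the compared groups alone in the fit (adjusted p = 0.055), without Ctrl-Thap replicate 2 (adjusted p = 0.0741), without Ctrl-Thap replicate 3 (adjusted p = 0.162), without Ctrl-DMSO replicate 1 (adjusted p = 0.0629) and without Ctrl-DMSO replicate 2 (log2 change -0.14, adjusted p = 0.241), with adjusted p of 0.019 to 0.241 over the alternatives.

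In the group of ISG15, ubiquitin and ADP-ribose genes, each of the 6 was lower in knockdown than in control cells under thapsigargin, and 4 of 6 in DMSO. Over all tested genes 28.4% were lower under thapsigargin and 26.5% in DMSO. Isg15 (ENSMUSG00000035692, chr4:156199424-156200818), the ubiquitin-like protein with the triple ISRE match, had 4.76, 5.87 and 6.67 CPM in Sh2-Thap, against 10.5, 12.7 and 11.7 CPM in Ctrl-Thap, and 2.49, 1.95 and 3.44 CPM in Sh2-DMSO, against 4.25, 3.95 and 4.85 CPM in Ctrl-DMSO. The groups did not overlap between treatments within a population or between populations within a treatment. Isg15 rose with thapsigargin 2.19-fold in knockdown cells (log2 change 1.13, SE 0.16, adjusted p = 3.79e-07) and 2.69-fold in control cells (1.43, SE 0.13, adjusted p = 1.16e-10). Isg15 was 2.03-fold lower with knockdown under thapsigargin (-1.02, SE 0.13, adjusted p = 9.85e-08) and 1.65-fold lower in DMSO (-0.72, SE 0.17, adjusted p = 0.000542). Usp18 (ENSMUSG00000030107, chr6:121245906-121270917) encodes the protease that removes ISG15 and blocks signalling at the interferon receptor, and had 0.823, 1.26 and 1.32 CPM in Sh2-Thap, against 2.73, 3.69 and 4.66 CPM in Ctrl-Thap, and 0.453, 0.324 and 0.405 CPM in Sh2-DMSO, against 0.437, 0.458 and 0.578 CPM in Ctrl-DMSO. Ctrl-Thap libraries were the highest by a wide margin, Sh2-Thap libraries came next, and the DMSO libraries of both populations overlapped. Usp18 rose 2.87-fold in knockdown cells (log2 change 1.52, SE 0.31, adjusted p = 5.37e-05) and 7.51-fold in control cells (2.91, SE 0.25, adjusted p = 1.77e-12), a difference of -1.39 (SE 0.43, adjusted p = 0.0104), and was lower with knockdown under thapsigargin (-1.71, SE 0.22, adjusted p = 3.21e-08).

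Trim25, a ubiquitin ligase that activates RIG-I, had 36.7, 37 and 37.2 CPM in Sh2-Thap, against 43.8, 40.5 and 42.1 CPM in Ctrl-Thap, and 41.8, 38.7 and 42.2 CPM in Sh2-DMSO, against 36.3, 39.3 and 39.4 CPM in Ctrl-DMSO. The whole span of the 12 libraries was small. Knockdown libraries lay below control libraries under thapsigargin and overlapped them in DMSO. Trim25 fell slightly with thapsigargin in knockdown cells (log2 change -0.15, SE 0.057, adjusted p = 0.0228) and rose slightly in control cells (0.14, SE 0.056, adjusted p = 0.0289). The difference passed the test (-0.28, SE 0.08, adjusted p = 0.00541). The fall was lost in DESeq2 (adjusted p = 0.0715), with the compared groups alone in the fit (adjusted p = 0.0556), without Sh2-DMSO replicate 1 (adjusted p = 0.0638) and without Sh2-DMSO replicate 3 (adjusted p = 0.0719), with adjusted p of 0.00667 to 0.0719 over the alternatives. The rise was lost with no filter on low counts (adjusted p = 0.173), without Ctrl-Thap replicate 1 (adjusted p = 0.129), without Ctrl-Thap replicate 3 (adjusted p = 0.0541) and without Ctrl-DMSO replicate 1 (adjusted p = 0.189), with adjusted p of 0.00938 to 0.189 over the alternatives. With knockdown under thapsigargin it was lower (-0.19, SE 0.056, adjusted p = 0.00479).

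Parp9 and Dtx3l form a complex of an ADP-ribosyltransferase relative and a ubiquitin ligase, and Parp14 transfers single ADP-ribose units. Parp9 had 5.61, 6.03 and 6.99 CPM in Sh2-Thap, against 8.23, 8.39 and 10.3 CPM in Ctrl-Thap, and 8.47, 6.96 and 8.82 CPM in Sh2-DMSO, against 10.7, 10.5 and 10.4 CPM in Ctrl-DMSO. Its knockdown libraries were the lower ones under each treatment. Parp9 was lower with knockdown under thapsigargin (log2 change -0.53, SE 0.11, adjusted p = 0.000114) and in DMSO (-0.38, SE 0.11, adjusted p = 0.0027). Parp9 fell with thapsigargin in knockdown cells (-0.38, SE 0.11, adjusted p = 0.00355) and in control cells (-0.23, SE 0.1, adjusted p = 0.0396). The call in control cells was lost with DESeq2 size factors (adjusted p = 0.0694), in DESeq2 (adjusted p = 0.16), without Ctrl-Thap replicate 1 (adjusted p = 0.146), without Ctrl-Thap replicate 2 (adjusted p = 0.156), without Ctrl-DMSO replicate 1 (adjusted p = 0.0869), without Ctrl-DMSO replicate 2 (adjusted p = 0.0831) and without Ctrl-DMSO replicate 3 (adjusted p = 0.0543), with adjusted p of 0.00581 to 0.16 over the alternatives. Dtx3l had 6.49, 5.71 and 6.87 CPM in Sh2-Thap, against 8.17, 7.74 and 9.47 CPM in Ctrl-Thap, and 8.09, 8.96 and 9.4 CPM in Sh2-DMSO, against 10.2, 10.2 and 12.8 CPM in Ctrl-DMSO. Its Ctrl-DMSO libraries were the highest and its Sh2-Thap libraries the lowest, with no overlap with another group. Dtx3l fell with thapsigargin in knockdown cells (log2 change -0.47, SE 0.11, adjusted p = 0.000398) and in control cells (-0.39, SE 0.1, adjusted p = 0.0012). Dtx3l was lower with knockdown under thapsigargin (-0.41, SE 0.11, adjusted p = 0.00227) and in DMSO (-0.32, SE 0.1, adjusted p = 0.0102). The call in DMSO was lost without Sh2-DMSO replicate 1 (adjusted p = 0.0632) and without Ctrl-DMSO replicate 3 (log2 change -0.20, adjusted p = 0.134), with adjusted p of 0.00384 to 0.134 over the alternatives. Parp14 had 2.38, 2.33 and 2.47 CPM in Sh2-Thap, against 5.24, 6.11 and 7.78 CPM in Ctrl-Thap, and 1.84, 1.74 and 2.37 CPM in Sh2-DMSO, against 3.35, 3.24 and 4.19 CPM in Ctrl-DMSO. Here the Ctrl-Thap libraries were the highest, and knockdown libraries lay below control libraries under each treatment. Parp14 was 2.67-fold lower with knockdown under thapsigargin (log2 change -1.41, SE 0.15, adjusted p = 1.43e-09) and 1.8-fold lower in DMSO (-0.85, SE 0.17, adjusted p = 8.96e-05). Its thapsigargin value in knockdown cells did not pass (0.27, SE 0.18, adjusted p = 0.194), while Parp14 rose in control cells (0.83, SE 0.14, adjusted p = 4.57e-06). The difference missed the threshold (-0.56, SE 0.23, adjusted p = 0.059). That difference passed without Ctrl-Thap replicate 1 (adjusted p = 0.0237), without Sh2-DMSO replicate 2 (adjusted p = 0.0362) and without Ctrl-DMSO replicate 3 (adjusted p = 0.027), with adjusted p of 0.0237 to 0.221 over the alternatives.

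Xaf1, which binds the caspase inhibitor XIAP, had 4.73, 4.6 and 5.87 CPM in Sh2-Thap, against 8.62, 7.85 and 8.71 CPM in Ctrl-Thap, and 5.21, 4.92 and 5.26 CPM in Sh2-DMSO, against 5.91, 6.01 and 6.18 CPM in Ctrl-DMSO. The Ctrl-Thap libraries stood above each other group, which lay close together. Its thapsigargin value in knockdown cells did not pass (log2 change -0.015, adjusted p = 0.917), while Xaf1 rose in control cells (0.47, SE 0.1, adjusted p = 0.000162). The difference passed (-0.49, SE 0.16, adjusted p = 0.0144). Xaf1 was lower with knockdown under thapsigargin (-0.72, SE 0.11, adjusted p = 7.9e-07). Tap1 (ENSMUSG00000037321, chr17:34187553-34197225), a subunit of the transporter that moves peptides into the ER for antigen presentation, had 10.4, 8.46 and 10.2 CPM in Sh2-Thap, against 4.57, 4.7 and 6.63 CPM in Ctrl-Thap, and 6.57, 7.25 and 8.36 CPM in Sh2-DMSO, against 4.51, 4.95 and 5.03 CPM in Ctrl-DMSO. It ran against most other members, with knockdown libraries above control libraries under each treatment and no overlap. Tap1 was 1.84-fold higher with knockdown under thapsigargin (log2 change 0.88, SE 0.12, adjusted p = 3.37e-07) and 1.53-fold higher in DMSO (0.62, SE 0.13, adjusted p = 0.000192). Tap1 rose with thapsigargin in knockdown cells (0.39, SE 0.12, adjusted p = 0.00472). Its value in control cells did not pass (0.13, adjusted p = 0.383). The difference of these effects did not pass (0.26, SE 0.18, adjusted p = 0.28), except without Ctrl-Thap replicate 3 (log2 change 0.45, adjusted p = 0.0413), with adjusted p of 0.0413 to 0.544 over the alternatives. Tap1 shares 212 bases of exon with Psmb9 on the opposite strand.

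The difference between the thapsigargin effects was tested directly. For 9 members the signed difference, knockdown minus control, was negative, where it was negative for 17.7% of all tested genes. For 5 of the 9 it was at least 1 in size on the log2 scale, namely Ifi44 (-2.56), Mx1 (-1.86), Usp18 (-1.39), Oasl1 (-1.35) and Ifit3 (-1.19). Smaller differences passed for Isg20 (-0.85), Xaf1 (-0.49), Ifi27 (-0.32) and Trim25 (-0.28). For Mx1 and Oasl1 the DMSO level was higher in knockdown cells, and the thapsigargin levels of the populations overlapped. For Ifi44, Usp18, Ifit3, Isg20 and Xaf1 the thapsigargin level was the lower one in knockdown cells, and for Ifi44 the DMSO level was lower too. Besides Ifi44, the members lower in knockdown cells under both treatments were Irf7, Irf9, Stat2, Ifi27, Isg15, Rtp4, Oasl2, Parp9, Parp14, Dtx3l and Ddx58. Except for Ifi44 and Ifi27, the difference of their thapsigargin effects did not pass the test, and it ran from -0.56 for Parp14 to -0.084 for Dtx3l. For Ddx58 the difference of -0.29 (adjusted p = 0.102) passed without Sh2-Thap replicate 3 (adjusted p = 0.0275) and without Ctrl-Thap replicate 1 (adjusted p = 0.046), with adjusted p of 0.0275 to 0.29 over the alternatives. A value that misses the threshold does not show that the effects were equal.

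**Figure D5:**
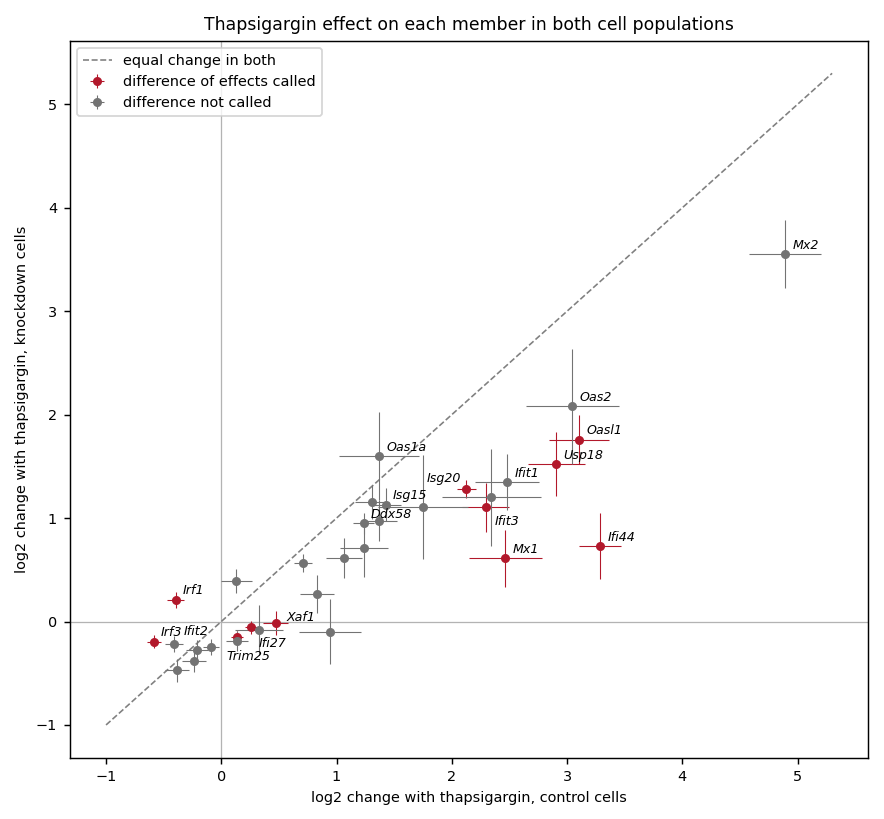
Log2 change with thapsigargin in knockdown cells against that in control cells for the 34 tested members, with bars of 1 SE and a colour of their own for the 11 members whose effects differed. Ifi44 lies farthest from the line of equal effects, at 0.73 in knockdown cells against 3.29 in control cells.

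The rest of the interferon pathway was counted from lists, and over the 15828 tested genes the median log2 change lay between 0 and 0.016 in each comparison. The first was that of the ligands. Of 21 interferon genes, 0 passed the filter for low counts, 11 had no read in any library, and no gene had more than 9 reads in a library. Their reads, summed over 3 libraries, numbered 31 in Sh2-Thap, 29 in Ctrl-Thap, 22 in Sh2-DMSO and 16 in Ctrl-DMSO. Ifnb1, which encodes interferon beta, had 1, 1 and 0 reads in Sh2-Thap libraries, against 2, 6 and 1 reads in Ctrl-Thap libraries, and 0 reads in each Sh2-DMSO library, against 1, 0 and 0 reads in Ctrl-DMSO libraries. Interferon transcripts were therefore at the limit of detection in each group, and 3 reads over a group correspond to 0.0266 to 0.0303 CPM.

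Of 10 tested receptor and JAK-STAT genes, 9 were lower with knockdown under thapsigargin and 9 in DMSO, with 0 higher in either, where 28.5% of all tested genes were higher and 28.4% lower under thapsigargin, and 25% higher and 26.5% lower in DMSO. Thapsigargin raised 6 and lowered 2 in knockdown cells, and did the same in control cells, where 35.4% of all tested genes rose and 34.4% fell in knockdown cells, and 37.7% rose and 37% fell in control cells. Their median log2 change was 0.18 with thapsigargin in knockdown cells and 0.17 in control cells, and -0.50 with knockdown under thapsigargin and -0.55 in DMSO. Ifnar1, a subunit of the type I interferon receptor, had 85.3, 80.3 and 83.1 CPM in Sh2-Thap, against 132, 135 and 138 CPM in Ctrl-Thap, and 74.8, 68.1 and 75 CPM in Sh2-DMSO, against 114, 116 and 117 CPM in Ctrl-DMSO. Knockdown libraries were lower under each treatment with no overlap, by a log2 change of -0.70 under thapsigargin (adjusted p = 7.88e-15) and -0.67 in DMSO (adjusted p = 6.75e-14). Ifnar2, the other subunit, rose with thapsigargin in knockdown cells (log2 change 0.32, adjusted p = 0.000105) and in control cells (0.27, adjusted p = 0.000336). Il10rb, shared by receptors of interferon lambda and interleukin 10, had 5.58, 5.54 and 5.05 CPM in Sh2-Thap, against 11.8, 12.4 and 13.1 CPM in Ctrl-Thap, and 8.38, 9.79 and 9.25 CPM in Sh2-DMSO, against 20.9, 19.9 and 20.7 CPM in Ctrl-DMSO. Il10rb was lower with knockdown under thapsigargin (log2 change -1.21, adjusted p = 2.68e-13) and in DMSO (-1.16, adjusted p = 8.8e-14). Jak1, the kinase of these receptors, was lower with knockdown under thapsigargin (-0.67, adjusted p = 7.92e-15), and Jak2 rose with thapsigargin in knockdown cells (0.17, adjusted p = 0.00279) and in control cells (0.57, adjusted p = 1.14e-12). Ifngr2, a subunit of the interferon gamma receptor, fell less with thapsigargin in knockdown cells (-0.27, adjusted p = 0.000398) than in control cells (-0.80, adjusted p = 2.7e-13), a difference of 0.53 (adjusted p = 1.25e-05).

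Of 14 tested genes of nucleic acid sensing, thapsigargin raised 5 and lowered 7 in knockdown cells, and raised 5 and lowered 6 in control cells. Over all tested genes the shares were 35.4% higher and 34.4% lower in knockdown cells and 37.7% higher and 37% lower in control cells, and the raised counts were near them. The knockdown came with 6 higher and 6 lower under thapsigargin, and with 2 higher and 8 lower in DMSO. Over all tested genes 28.5% were higher and 28.4% lower under thapsigargin, and 25% higher and 26.5% lower in DMSO. Their median log2 change was -0.12 with thapsigargin in knockdown cells and -0.026 in control cells, and -0.014 with knockdown under thapsigargin and -0.17 in DMSO. Tlr3, an endosomal receptor of double-stranded RNA, had 1.2, 0.843 and 0.94 CPM in Sh2-Thap, against 0.74, 0.889 and 0.843 CPM in Ctrl-Thap, and 4.4, 3.6 and 4.68 CPM in Sh2-DMSO, against 2.94, 2.55 and 4.07 CPM in Ctrl-DMSO. Its thapsigargin libraries were the lower ones, by a log2 change of -2.08 in knockdown cells (adjusted p = 6.46e-11) and -1.93 in control cells (adjusted p = 5.2e-10). Tmem173, which encodes STING, fell likewise, by a log2 change of -1.43 in knockdown cells (adjusted p = 1.31e-12) and -1.51 in control cells (adjusted p = 3.97e-13). Ticam1, the adaptor of Tlr3, rose in knockdown cells (log2 change 1.24, adjusted p = 1.53e-18) and in control cells (1.14, adjusted p = 2.91e-18). Cgas, the DNA sensor upstream of STING, was lower with knockdown under thapsigargin (-0.83, adjusted p = 4.29e-10). Samhd1, a triphosphohydrolase that depletes nucleotides, showed the largest difference of thapsigargin effects in this list (0.95, adjusted p = 3.31e-13).

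Of 10 tested feedback regulators, thapsigargin raised 2 and lowered 4 in knockdown cells, and raised 3 and lowered 5 in control cells. These counts are to be read against the same shares over all tested genes, which for the knockdown were 28.5% higher and 28.4% lower under thapsigargin and 25% higher and 26.5% lower in DMSO. The knockdown came with 2 higher and 1 lower under thapsigargin, and with 1 higher and 4 lower in DMSO. Their median log2 change was -0.15 with thapsigargin in knockdown cells and -0.13 in control cells, and -0.034 with knockdown under thapsigargin and -0.10 in DMSO. Socs1, which blocks JAK kinases, had 12.1, 13.3 and 12.9 CPM in Sh2-Thap, against 7.36, 7.8 and 10.5 CPM in Ctrl-Thap, and 13.4, 15.5 and 13.7 CPM in Sh2-DMSO, against 12.9, 13 and 11.5 CPM in Ctrl-DMSO. Socs1 was higher with knockdown under thapsigargin (log2 change 0.58, adjusted p = 1.34e-05), where the groups did not overlap. Socs3 fell with thapsigargin in knockdown cells (-0.31, adjusted p = 0.000146) and in control cells (-0.84, adjusted p = 2.46e-13). Tnfaip3, which encodes A20, rose with it in knockdown cells (0.85, adjusted p = 7.23e-16) and in control cells (0.55, adjusted p = 3.46e-11). Of the 4 other IRF genes tested, Irf8 had 0 reads in each DMSO library and passed the filter through thapsigargin libraries alone, so its rise was fixed by the filter. The 2 with a mean of at least 1 CPM rose in both populations, where 35.3% of tested genes at that level rose in knockdown and 37.1% in control cells. The knockdown came with 2 of them lower under thapsigargin and 1 in DMSO, where 33% and 31.9% of those genes were lower. Irf5, a factor of inflammatory gene control, had 8.14, 7.07 and 9.4 CPM in Sh2-Thap, against 13.1, 12.7 and 15.1 CPM in Ctrl-Thap, and 3.07, 2 and 2.98 CPM in Sh2-DMSO, against 6.96, 6.73 and 6.82 CPM in Ctrl-DMSO. Its knockdown libraries were lower under each treatment with no overlap, by a log2 change of -0.73 under thapsigargin (adjusted p = 6.93e-07) and -1.35 in DMSO (adjusted p = 6.98e-10).

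Of 52 tested other interferon-stimulated genes, among them 1 that also stands in the receptor list and Eif2ak2 and Adar of the sensing list, 11 passed the filter through thapsigargin libraries and would not have passed it by DMSO libraries alone, Oas1b, Oas1c, Slfn5 and Ddx60 among them. Counts were therefore taken over the 35 with a mean of at least 1 CPM over the 12 libraries. This lessens the lean toward genes high with thapsigargin but does not remove it, since Ifit3b reached that mean only through thapsigargin libraries. Of the 35, thapsigargin raised 14 and lowered 15 in knockdown cells, and raised 20 and lowered 9 in control cells, where 35.3% of the 12297 tested genes at that level rose and 41.2% fell in knockdown cells, and 37.1% rose and 43.6% fell in control cells. The knockdown came with 4 higher and 24 lower under thapsigargin, where 32.7% of those genes were higher and 33% lower, and with 8 higher and 15 lower in DMSO, where 28.2% were higher and 31.9% lower. Their median log2 change was 0.17 with thapsigargin in knockdown cells and 0.40 in control cells, and -0.62 with knockdown under thapsigargin and -0.19 in DMSO. The difference of thapsigargin effects, knockdown minus control, was positive for 2 and negative for 14, where it was positive for 21.8% and negative for 21.2% of those genes at that level. Irgm2, an immunity-related GTPase, had 3.09, 3.53 and 3.99 CPM in Sh2-Thap, against 14.4, 16.2 and 19.5 CPM in Ctrl-Thap, and 0.582, 0.501 and 1.33 CPM in Sh2-DMSO, against 2.1, 2.09 and 3.35 CPM in Ctrl-DMSO. Ctrl-Thap libraries were the highest and Sh2-DMSO libraries the lowest, with no overlap between populations under either treatment. Irgm2 was lower with knockdown under thapsigargin by a log2 change of -2.24 (adjusted p = 3.6e-09). Ifitm1, a membrane protein that hinders viral fusion, had 0.705, 0.389 and 1.03 CPM in Sh2-Thap, against 5.69, 5.66 and 5.14 CPM in Ctrl-Thap, and 3.2, 2.62 and 2.69 CPM in Sh2-DMSO, against 27.9, 24.7 and 24.2 CPM in Ctrl-DMSO. Its thapsigargin libraries lay below its DMSO libraries, and it was lower with knockdown by -2.93 under thapsigargin (adjusted p = 1.27e-15) and -3.18 in DMSO (adjusted p = 9.06e-21).

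Ifi203 and Mndal, of the family of DNA-binding PYHIN proteins, had among the largest differences of thapsigargin effects in that list. Ifi203 had 61.2, 57.7 and 57.6 CPM in Sh2-Thap, against 119, 112 and 116 CPM in Ctrl-Thap, and 27, 27.1 and 28.1 CPM in Sh2-DMSO, against 22.9, 22.9 and 24.3 CPM in Ctrl-DMSO. Ifi203 rose with thapsigargin in both populations, less in knockdown cells by a log2 change of -1.20 (adjusted p = 1.94e-14), and Mndal less by -1.33 (adjusted p = 6.49e-08). Ifit3b, the near copy of Ifit3, rose less in knockdown cells by -1.89 (adjusted p = 0.00222). Cxcl10, a chemokine that attracts T cells, had 8.23, 10.2 and 9.13 CPM in Sh2-Thap, against 9.33, 10.7 and 9.92 CPM in Ctrl-Thap, and 1.46, 1.42 and 3.47 CPM in Sh2-DMSO, against 1.6, 0.974 and 1.07 CPM in Ctrl-DMSO. Its thapsigargin libraries were the higher ones and overlapped between the populations, and its log2 rise was 2.10 in knockdown cells (adjusted p = 1.15e-06) and 3.04 in control cells (adjusted p = 2.94e-08). Of the 51 genes of this list with a promoter window, 29 held an ISRE match, 10 a GAS match and 6 a C/EBP-ATF match. Over all genes with a window the shares were 3.99%, 9.55% and 4.51%.

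Of 12 tested antigen presentation genes, thapsigargin raised 2 and lowered 6 in knockdown cells, and raised 2 and lowered 8 in control cells, where 35.4% of all tested genes rose and 34.4% fell in knockdown cells, and 37.7% rose and 37% fell in control cells. The knockdown came with 2 higher and 5 lower under thapsigargin, and with 1 higher and 6 lower in DMSO. Over all tested genes 28.5% were higher and 28.4% lower under thapsigargin, and 25% higher and 26.5% lower in DMSO. Most of these genes were thus not higher in knockdown cells, as Tap1 was, and neither were most of all tested genes. Their median log2 change was -0.32 with thapsigargin in knockdown cells and -0.55 in control cells, and -0.15 with knockdown under thapsigargin and -0.18 in DMSO. Tapbp, which encodes tapasin and holds the class I molecule at the TAP transporter, had 28.6, 27.5 and 33 CPM in Sh2-Thap, against 36.6, 37.6 and 39.1 CPM in Ctrl-Thap, and 78.2, 72.4 and 75.9 CPM in Sh2-DMSO, against 98.7, 106 and 103 CPM in Ctrl-DMSO. Thapsigargin libraries were the lower ones in both populations, by a log2 change of -1.34 in knockdown cells (adjusted p = 1.23e-19) and -1.44 in control cells (adjusted p = 3.26e-21). H2-T23, a nonclassical class I gene, was lower with knockdown under thapsigargin (-0.86, adjusted p = 3.78e-12) and in DMSO (-1.28, adjusted p = 1.92e-16). Nlrc5, the transactivator of class I genes, rose with thapsigargin in knockdown cells (0.72, adjusted p = 5.52e-07) and in control cells (0.83, adjusted p = 5.06e-08).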

How the data were processed

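Poly(A) RNA was sequenced from C2C12 cells, and raw counts of reads per gene were deposited by the authors for 12 libraries, 3 in each of 4 groups. Per the submitters' processing notes the tools were Trim Galore, STAR 2.5.3a, bedtools 2.31.0 and DESeq2, with the builds mm10 and hg38. The strand, the counter and the release of the annotation are not stated in the labels or headers used here, and reads in exons shared by genes on either strand are uncertain. Besides the 53801 gene identifiers, the deposited counts hold 5 entries that name no gene, with 13.32% to 14.61% of all counted reads per library. Reads ambiguous between genes are part of these entries and made up 6.47% to 6.88% of all counted reads. These entries were left out of library sizes and tests. Identifiers were matched to GENCODE vM21 for 53706 of them.

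Tests used edgeR 4.0.16 with TMM factors of 0.967 to 1.073 and its filter for low counts, which kept 15828 genes and dropped 37973. One robust quasi-likelihood fit held the 12 libraries with a mean per group and no replicate block (8 residual degrees of freedom, biological variation of 4.67%). Benjamini-Hochberg adjustment ran over the genes tested, and calls were made under 0.05. The SE printed beside a log2 change is that change over the root of its F value, which only approximates the fit's own SE. CPM used the same TMM scaling, and RPKM divided it by the union of exons in kb. The steps were tested on simulated data. Chi-square values per gene of 2.51 to 9.83 put the replicates of each group apart beyond counting error.

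Alternatives were 2 other scalings, no filter, DESeq2 1.42.0, a replicate block, fitting the compared groups alone, and leaving out each library. The members and the pathway lists were chosen with earlier results of these data known. Members that averaged 5 CPM or more in a group, or called in the difference of effects, are given by library (28 members), and the other 7 by range. From each pathway list at most 3 called genes per comparison are named, those with the largest changes and 1 CPM or more as a group mean, besides Cebpg. Not every gene this rule allows is named, and some items are not reported here. Promoter windows were from RefSeq. Computing ran in R 4.3.3 and in Python 3.11.15 with pandas 2.3.3, and figures were drawn by matplotlib 3.10.9.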

Additional observations from a re-analysis of the deposited data

Results flagged for a closer look

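The thapsigargin effect of 11 members differed between knockdown and control cells by edgeR's test of the difference itself, given here as knockdown minus control on the log2 scale. Over all tested genes the difference was positive for 17.6% and negative for 17.7%. Among the members it was positive for Irf1 (0.60) and Irf3 (0.39). It was negative for Ifi44 (-2.56), Mx1 (-1.86), Usp18 (-1.39), Oasl1 (-1.35), Ifit3 (-1.19), Isg20 (-0.85), Xaf1 (-0.49), Ifi27 (-0.32) and Trim25 (-0.28). Irf1 and Trim25 were called in opposite directions in the 2 populations.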

How the results depend on the processing

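Over the alternatives, 2914 of 3022 values of single members stayed on their side of the threshold, 62 lost it, 46 gained it and 0 reversed a call. Members raised by thapsigargin numbered 14 to 21 in knockdown and 23 to 25 in control cells, and members lower with knockdown under thapsigargin 23 to 26. Members lowered by thapsigargin in knockdown cells ranged from 3, without Sh2-DMSO replicate 3, to 8 over left-out libraries and other settings. Members higher with knockdown under thapsigargin ranged from 1 to 3. There was 1, Tap1, with no filter, 1 in DESeq2, and 1 without Sh2-Thap replicate 3, Ctrl-Thap replicate 1 or Ctrl-Thap replicate 2. By RPKM 1 member was well expressed and 16 were near-silent, which follows from dividing by length. Depth limits the near-silent members and the ligands, where a few reads decide a value.

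Replicate numbers are shared by the groups but do not pair libraries: deviations of same-numbered libraries correlated at -0.030 to 0.066, against -0.078 to 0.069 for other numbers, and 13 of 36 library and group pairs matched best with their own number. With a replicate block, thapsigargin raised 20 and lowered 7 members in knockdown cells and raised 24 and lowered 6 in control cells. The knockdown came with 2 higher and 25 lower under thapsigargin and 3 higher and 15 lower in DMSO, and the difference of effects was positive for 2 and negative for 13, against 9 without the block.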
